A study of Mus musculus with 8 samples.

Results

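The 10 genes Mest, Copg2, Peg10, Sgce, Ppp1r9a, Calcr, Nap1l5, Herc3, Peg3 and Usp29 make up the core of 4 imprinted loci on mouse chromosomes 6 and 7. They were followed in a profile of H3K27me3, the trimethylated histone H3 lysine that Polycomb repressive complex 2 places on silent chromatin. Every transcript interval of the count table on these chromosomes was taken whose span best matched a listed gene in RefSeq and overlapped it by at least 0.5 of their union. This gave 43 intervals of 50398, for all 10 listed genes out of 20287 named ones. The last interval kept was a short Herc3 transcript with an overlap of 0.507, and the first one left out was another short Herc3 transcript with 0.483. For values per gene, the interval closest to the RefSeq span was used.

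The cells were 2 clones, A and B, of E14tg2a, a mouse embryonic stem cell line of 129SV background, and each clone stably carried cRAF-ErT2, a RAF kinase that 4-hydroxytamoxifen (4OHT) switches on to drive ERK signalling. The 2 h group (n = 2 libraries, clones A and B) had 2 h of 250 nM 4OHT, and the 0 h group (n = 2 libraries, the same clones) had none. Both groups had been grown in medium of serum and LIF plus the GSK3 inhibitor Chir99021 at 2 µM. A day before treatment the inhibitor was exchanged for PD173074, which blocks FGF receptors, at 250 nM, still with serum and LIF. The cells were then fixed in 1% formaldehyde for 10 min. The 4 matching input libraries were not analysed here. The clones derive from 1 line, the libraries of a clone are its 2 times, and nothing in the labels names separate cultures, so the p-values below reflect the spread between these samples only, and that spread may be technical. Counts do not separate the parental alleles, and fewer cells carrying the mark cannot be told apart from less of the mark per cell.

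Imprinted genes are expressed from a single parental copy, and the choice is kept by DNA methylation that the egg or sperm laid down at a control region and that early embryos and stem cells maintain. At each of these 4 loci the control region is a promoter methylated on the maternal copy, and Mest, Peg10, Nap1l5 and Peg3 are transcribed from the unmethylated paternal copy. H3K27me3 and dense DNA methylation tend to avoid each other at CpG-rich promoters.

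Column totals lay between 70378127 and 92518605 counts, and the median interval held 427 to 558 counts. Counts are given as a density, in counts per kb of interval per 1000000 counts of the column. This is not an enrichment over input. Density differences between genes, stretches or clones may thus hold a part that input would share, which was not tested. The median gene had a density of 0.358, and the 4 library medians differed by an SD of 0.00280. A gene was called marked at 4 times that median or more, which held for 5.77% of named genes. As a check of the cell label, all 8 listed Hox genes were marked, with a median of 14.8 times the median gene, against 1 of 8 stem cell genes, with a median of 0.432 times. None of the 3 housekeeping genes was marked, and their median was 0.272 times, although B2m had 2.48 times. Of 6 fibroblast genes, which could mark feeder cells, Thy1 alone was marked, and the list's median was 2.44 times. A histone mark shows no expression level, so the share of feeder cells was not tested.

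None of the 10 genes reached the level that marked genes had, 0 of 10 against 5.77% of named genes. For 10 genes that count is near the share and is no result about these loci. The level is a mean over a whole gene, so a short dense stretch in a long gene, as in Calcr below, counts for little. Their median density was 1.26 times that of the median gene, with 6 genes above it and 4 below. Nap1l5 and Sgce passed 2 times the median, which 18.8% of named genes did. The highest density, over Nap1l5, was 3.66 times the median gene and the lowest, over Copg2, was 0.348 times.

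**Figure D1:**
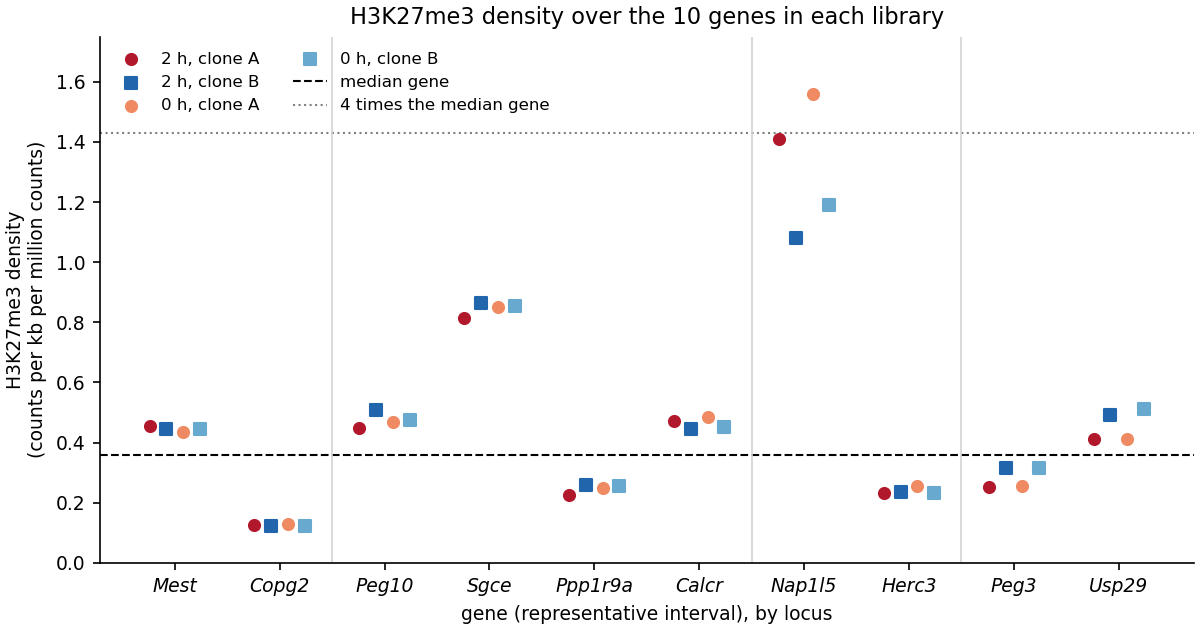
H3K27me3 density (counts per kb per 1000000 counts, linear axis) over the interval used for each of the 10 genes, grouped by locus, with 1 point per library. Circles are clone A, squares clone B, dark colours 2 h and light colours 0 h. The dashed line is the median gene at 0.358, and the dotted line is 4 times that level. Nap1l5 stands highest in all 4 libraries, and its clone A points lie above its clone B points.

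The Mest locus opened with a dense upstream stretch that gave way to a sparse gene body. Mest, an α/β-hydrolase family member of the embryonic mesoderm, spans chr6:30733506-30748466 on the plus strand. At 2 h its density in clone A was 0.455, with 0.446 in clone B, against 0.435 in clone A and 0.445 in clone B at 0 h. All 4 libraries fell close together, and the mean was 1.24 times the median gene.

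The table lists 4 Mest transcripts with separate starts, so counts of the longer interval minus those of the shorter one give the stretch between the starts. These 4544 bp, chr6:30733506-30738049, held 481 and 441 counts in clones A and B at 2 h, against 340 and 419 counts at 0 h. Their density was 1.12 ± 0.0385 (SD over 4 libraries), or 3.13 times the median gene. In the other 10417 bp the density was 0.421 times the median gene. The ratio of the upstream stretch to the rest was 7.45, and 76.5% of the Mest counts lay in 30.4% of its length.

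The RefSeq promoter windows (GRCm38.p6, the assembly behind mm10; 250 bases before a start and 50 after it) at the ends of this stretch are printed to show how they differ in CpG, the base pair step that DNA methylation uses. Capitals mark CpG, and both windows are on the plus strand.
Mest upstream start, chr6:30733256-30733555: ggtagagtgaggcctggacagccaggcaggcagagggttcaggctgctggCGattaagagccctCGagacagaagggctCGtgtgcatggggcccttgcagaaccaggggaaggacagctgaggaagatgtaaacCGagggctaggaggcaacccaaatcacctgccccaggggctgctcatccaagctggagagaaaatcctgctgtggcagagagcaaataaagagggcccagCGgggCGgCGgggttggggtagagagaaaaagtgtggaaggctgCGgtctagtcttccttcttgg
Mest downstream start, chr6:30737800-30738099: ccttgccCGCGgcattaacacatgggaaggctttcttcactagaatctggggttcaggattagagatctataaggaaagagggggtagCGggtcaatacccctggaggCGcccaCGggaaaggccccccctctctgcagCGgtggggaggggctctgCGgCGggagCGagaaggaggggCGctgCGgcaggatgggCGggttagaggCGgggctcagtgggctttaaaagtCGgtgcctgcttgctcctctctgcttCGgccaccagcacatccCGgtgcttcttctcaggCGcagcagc
The upstream window holds 8 CpG and the downstream one 17, against a median of 7 over all 32851 windows. A count of 17 or more was found in 31.4% of windows. The downstream window also holds 2 copies of TGCCGC, the hexamer read by the imprint-keeping zinc finger protein ZFP57, which was searched on both strands and occurs in 11.6% of all windows.

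Copg2, a subunit of the coatomer coat that shuttles vesicles from the Golgi, lies tail to tail with Mest on the minus strand, chr6:30747554-30896794, and shares 913 bp with it. It was the sparsest of the 10 genes, with a density of 0.126 in clone A and 0.121 in clone B at 2 h, against 0.129 in clone A and 0.123 in clone B at 0 h. That is 0.348 times the median gene, which put Copg2 at the 17.0th percentile of 1998 genes of like length (within a factor of 2). Its promoter window is rich in CpG, with 25, and holds 1 TGCCGC.

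Of 10 listed neighbours of the Mest locus 8 were measured, with a median of 2.66 times the median gene, and 6 of them were denser than Mest. The other 2, Cep41 and Mkln1, had 1.19 and 0.438 times, and Mestit1 and Copg2os2 were not analysed here. On one side, the carboxypeptidase A genes Cpa1, Cpa4 and Cpa5 had between 2.75 and 3.24 times the median gene. On the other side lay Klf14, a zinc finger gene with maternal expression, at 11.3 times, the sole marked gene among the 43 measured neighbours of the 4 loci.

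At the Peg10 locus the mark ran over Sgce and was weaker over the adjoining Peg10. Peg10, a retrotransposon-derived gene needed for the placenta, lies on the plus strand at chr6:4747306-4760517. Sgce, which encodes the muscle membrane protein ε-sarcoglycan, lies on the minus strand at chr6:4674350-4747204, so the starts face away from each other across 101 bp. Sgce had a density of 0.813 in clone A and 0.863 in clone B at 2 h, against 0.850 in clone A and 0.854 in clone B at 0 h. Its mean was 2.36 times the median gene, at the 93.8th percentile of 3828 genes of like length. Peg10 had 0.447 and 0.507 in clones A and B at 2 h, against 0.470 and 0.476 at 0 h. This was 1.33 times the median gene, at the 62.7th percentile of 7373 genes of like length.

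Within Sgce the mark was uneven. Its first 52363 bp, next to Peg10, had a density of 1.07 ± 0.0220 (SD over 4 libraries), or 2.99 times the median gene. The other 20492 bp, at the 3′ end, had 0.762 times the median gene, lower by a factor of 3.93. The first part held 90.9% of the Sgce counts in 71.9% of its length. No promoter window is printed for Peg10 or Sgce.

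Ppp1r9a encodes neurabin, an actin-binding scaffold of synapses, and lies 156 kb downstream of the Peg10 start at chr6:4902879-5165661. At 2 h its density in clone A was 0.224, with 0.259 in clone B, against 0.2499 in clone A and 0.256 in clone B at 0 h. This was 0.692 times the median gene, and the 9 Ppp1r9a intervals lay between 0.692 and 0.704 times. One of its promoter windows, chr6:4903061-4903360, holds 48 CpG, as many as 1.22% of windows reach. The 780 bp between the outermost and innermost Ppp1r9a starts, around that window, held just 12 and 15 counts at 2 h (clones A and B) and 9 and 12 at 0 h. Their density was 0.521 times the median gene, against 0.693 times in the rest of the gene.

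Calcr, the calcitonin receptor gene, is maternally expressed in mouse brain and lies at chr6:3685720-3764713 on the minus strand. Over the whole gene it had a density of 0.472 in clone A and 0.446 in clone B at 2 h, against 0.486 in clone A and 0.452 in clone B at 0 h. The mean was 1.30 times the median gene. Between its upstream and downstream starts, the mark was far denser. This stretch of 1090 bp, chr6:3763624-3764713, held 345 and 255 counts in clones A and B at 2 h, against 220 and 237 counts at 0 h. Its density of 2.93 ± 0.338 (SD over 4 libraries) was 8.19 times the median gene and 6.81 times that of the remaining 77904 bp. Of the stretches measured at these genes, this one and an overlapping one of 1038 bp were the densest.

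The Calcr window at the downstream start overlaps the inner end of this stretch, and is printed because its CpG content is the highest among the windows that touch a dense stretch; it is on the minus strand, with CpG in capitals.
Calcr downstream start, chr6:3763574-3763873: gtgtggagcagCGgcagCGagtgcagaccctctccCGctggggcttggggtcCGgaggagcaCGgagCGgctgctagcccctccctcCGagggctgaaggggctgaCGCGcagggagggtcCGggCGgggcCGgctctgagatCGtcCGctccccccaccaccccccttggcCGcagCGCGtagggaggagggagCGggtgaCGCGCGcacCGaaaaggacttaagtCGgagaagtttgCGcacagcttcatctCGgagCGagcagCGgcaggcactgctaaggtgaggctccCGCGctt
It holds 29 CpG, which 12.9% of windows reach, and 2 copies of TGCCGC. The window at the upstream Calcr start holds 4 CpG and no TGCCGC.

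Around Peg10, all 15 listed neighbours were measured and none was marked. Their median was 1.37 times the median gene. Casd1, a sialic acid O-acetyltransferase gene beside Sgce, had 2.396 times and Gng11, a G protein subunit gene, 2.37 times. Vps50, a subunit of an endosomal recycling complex, had the lowest density at 0.2497 times.

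**Figure D2:**
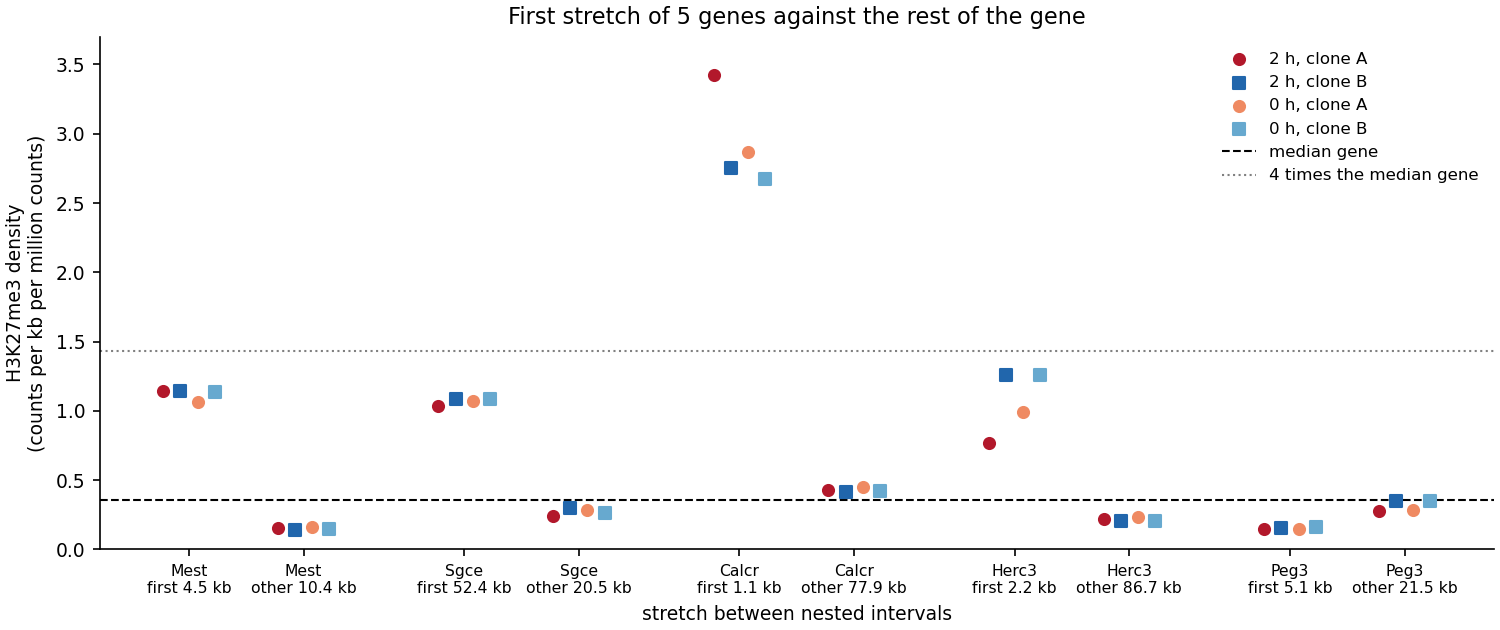
H3K27me3 density (counts per kb per 1000000 counts, linear axis) in the first stretch of 5 genes and in the rest of the same gene, with 1 point per library. Circles are clone A, squares clone B, dark colours 2 h and light colours 0 h. The dashed line is the median gene and the dotted line 4 times that level. The first stretch lies above the rest in all 4 libraries for Mest, Sgce, Calcr and Herc3, and below it for Peg3.

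Nap1l5 was a small dense island inside a sparse host gene. It is a retrogene, an intronless copy of the nucleosome assembly protein family, of 1894 bp on the minus strand, chr6:58905233-58907126, within Herc3, a HECT ubiquitin ligase gene on the plus strand, chr6:58831456-58920398. Nap1l5 held 247 counts in clone A and 174 in clone B at 2 h, against 208 in clone A and 183 in clone B at 0 h. As a density this was 1.41 and 1.08 at 2 h (clones A and B), against 1.56 and 1.19 at 0 h. Of the 4 libraries, that of clone A at 0 h alone stood above 4 times the median gene. The mean put Nap1l5 at the 93.4th percentile of named genes and at the 87.5th percentile of 3270 genes of like length.

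Herc3 had a density of 0.231 in clone A and 0.234 in clone B at 2 h, against 0.257 in clone A and 0.231 in clone B at 0 h, or 0.666 times the median gene. Nap1l5 takes up 2.13% of the Herc3 length and gave between 9.81% and 13% of its counts in the 4 libraries. Without it, the rest of Herc3 had a density of 0.215 ± 0.00992 (SD over 4 libraries), 0.601 times the median gene, and Nap1l5 was denser than that rest by a factor of 6.09 ± 0.920. In the nearer 34.8 kb flanks, Nap1l5 itself left out, the density was 0.235 ± 0.0251, and Nap1l5 stood 5.58 times above it.

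The Nap1l5 promoter window is printed because it is the promoter of the densest gene, on the minus strand with CpG in capitals.
Nap1l5, chr6:58907077-58907376: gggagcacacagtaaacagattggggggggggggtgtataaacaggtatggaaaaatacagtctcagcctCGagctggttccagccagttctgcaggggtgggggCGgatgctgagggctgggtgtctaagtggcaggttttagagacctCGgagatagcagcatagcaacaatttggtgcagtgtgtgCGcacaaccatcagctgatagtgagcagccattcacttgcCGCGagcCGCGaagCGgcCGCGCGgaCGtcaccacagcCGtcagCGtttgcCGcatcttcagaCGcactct
Most of its 17 CpG sit near the end of the printed run, close to the start of the gene, and 2 copies of TGCCGC are among them.

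Herc3 also had a denser first stretch, far from Nap1l5. Its first 2244 bp, chr6:58831456-58833699, held 160 counts in clone A and 240 in clone B at 2 h, against 157 in clone A and 230 in clone B at 0 h. Their density of 1.07 ± 0.236 (SD over 4 libraries) was 2.99 times the median gene, while the next 5928 bp had 0.794 times and the 35419 bp after those 0.431 times. At both times this first stretch was lower in clone A, with a log2 difference of A minus B of -0.71 at 2 h and -0.34 at 0 h and no test, whereas Nap1l5 was higher in clone A at both times. The window at the Herc3 start next to it, chr6:58833450-58833749, holds 4 CpG.

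All 10 listed neighbours of Nap1l5 were measured, and none was marked. One of them, Pigyl, lies on another chromosome, and Smarcad1 and Hpgds lie over 6 Mb away. The nearest, Fam13a, had 0.941 times the median gene, Smarcad1 had 0.259 times, and the neighbour median was 0.744 times.

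The Peg3 locus was sparse over the first part of Peg3, and the promoter that Peg3 shares with Usp29 was not measured apart. Peg3, a Krüppel-type zinc finger gene of growth and maternal behaviour, lies on the minus strand at chr7:6703892-6730441. Usp29, a ubiquitin protease gene, starts 118 bp away on the plus strand and spans chr7:6730560-6967220. Peg3 had a density of 0.252 in clone A and 0.316 in clone B at 2 h, against 0.256 in clone A and 0.316 in clone B at 0 h, or 0.796 times the median gene. Usp29 had 0.412 in clone A and 0.491 in clone B at 2 h, against 0.411 in clone A and 0.512 in clone B at 0 h, or 1.28 times. In both genes, all clone B libraries lay above all clone A libraries. The clones did not overlap over Copg2, Peg10, Sgce, Ppp1r9a, Calcr and Nap1l5 either, in either direction. The share of all named genes with such a gap was not counted, so it sets no gene apart.

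Unlike Mest, Calcr and Herc3, Peg3 had less of the mark at its start than over its body, as did Ppp1r9a on few counts. The first 5076 bp of Peg3, chr7:6725366-6730441, held 68 counts in clone A and 68 in clone B at 2 h, against 53 in clone A and 68 in clone B at 0 h. Their density of 0.154 ± 0.00905 (SD over 4 libraries) was 0.430 times the median gene, and the other 21474 bp had 0.883 times. The promoter window lies at the outer end of this sparse stretch, on the minus strand, and is printed with CpG in capitals.
Peg3, chr7:6730370-6730669: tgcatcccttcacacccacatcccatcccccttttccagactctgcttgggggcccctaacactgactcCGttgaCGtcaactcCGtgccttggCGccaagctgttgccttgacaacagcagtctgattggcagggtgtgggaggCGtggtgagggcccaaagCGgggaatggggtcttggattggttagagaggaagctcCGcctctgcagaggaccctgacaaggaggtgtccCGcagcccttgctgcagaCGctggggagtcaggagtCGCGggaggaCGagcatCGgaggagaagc
It holds 13 CpG and shares 263 bp with the Usp29 window, which holds 17. Neither holds TGCCGC. RefSeq windows were found for 8 of the 10 genes, 12 windows in all, with 4 to 48 CpG. TGCCGC was found in 5 of the 12, some of which overlap (those of Mest, and those of Peg3 and Usp29). CCATNTT, a core of the motif of YY1, was found on either strand in 0 of the 12, against 16.1% of all windows. Sequence outside the windows was not searched.

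In the Peg3 domain 10 of 11 listed neighbours were measured and none was marked. Zim2, a zinc finger gene imprinted with Peg3, had 1.78 times the median gene, Zim1 1.17 times and Peg3os, which lies within Peg3 so that its reads cannot be told apart from those of Peg3 here, 1.34 times. Zfp954, a zinc finger gene beyond Usp29, had 0.247 times.

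Activation of RAF and ERK for 2 h left no called difference over these genes. Of the 43 intervals 0 were called by edgeR's quasi-likelihood test at a Benjamini-Hochberg adjusted p of 0.05, and the background was 0% of 50037 intervals tested. The test gave 188 intervals, 0.376%, at an unadjusted p under 0.05, none of them over the 10 genes, and DESeq2 called 0 and gave 2 at that level. Clone was left out of this fit, so the difference between clones enters its spread and can widen its intervals. The low share is therefore no measure of how little changed. With clone as a block in edgeR, 2078 intervals (4.15%) had an unadjusted p under 0.05, again none over the 10 genes. Across the 10 genes, the log2 difference of 2 h minus 0 h ran between -0.14 (Nap1l5, SE 0.21) and 0.03 (Mest, SE 0.12), with 2 genes positive and 8 negative. Their 95% intervals together spanned -0.63 to 0.36, from the lower limit of Nap1l5 to the upper limit of Peg3, and single genes had narrower ones, such as -0.22 to 0.17 for Sgce and -0.29 to 0.15 for Ppp1r9a. Changes of a size that lies within the 95% interval of a gene remain possible. With clone as a block, the 95% intervals of the 10 genes spanned -0.41 to 0.21, and again 0 of the 43 were called. Sgce then had -0.13 to 0.07 and Ppp1r9a -0.17 to 0.03. The listed neighbours also had 0 calls, with log2 differences between -0.22 and 0.16.

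**Figure D3:**
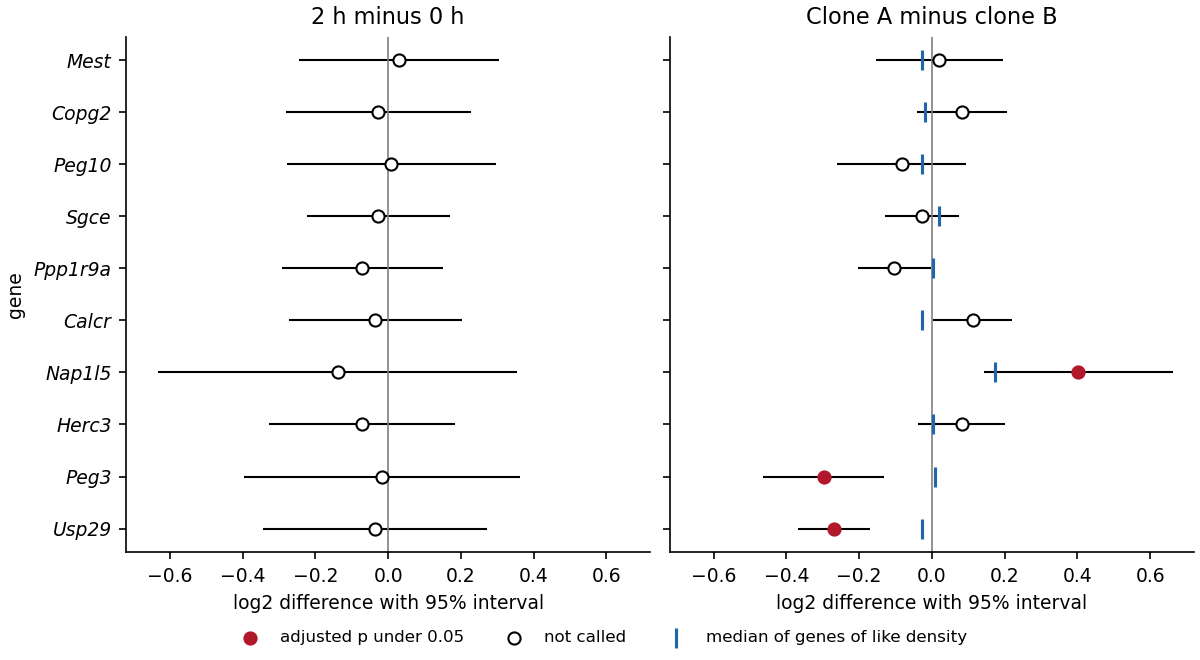
Log2 difference in H3K27me3 counts over each of the 10 genes, 2 h minus 0 h on the left and clone A minus clone B on the right, from edgeR with 95% intervals (horizontal lines). Filled red points have an adjusted p under 0.05 and blue ticks give the median clone difference of genes of like density. No gene is filled on the left, and Nap1l5 lies to the right and Peg3 and Usp29 to the left of their ticks in the clone comparison.

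Between the clones, Nap1l5 was higher in clone A, and Peg3 and Usp29 were lower. These 3 of 10 genes were called by edgeR, 1 higher and 2 lower in clone A, against 25.5% of 20008 tested genes (15.4% higher and 10.1% lower). The count is near the background and is no result about these loci. Among intervals, 15 of the 43 were called, 5 higher and 10 lower in clone A, against 27.5% of all intervals (17.3% higher and 10.3% lower), and nested intervals of a gene share their reads.

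Nap1l5 averaged 1.49 ± 0.107 in clone A and 1.13 ± 0.0769 in clone B (density, SD, n = 2 libraries each). The log2 difference of A minus B was 0.40 (SE 0.13, edgeR adjusted p = 0.0119). DESeq2 gave 0.39 with an adjusted p of 0.112, and without the 0 h clone A or the 2 h clone B library the edgeR adjusted p was 0.122 and 0.192. Dense genes as a group were higher in clone A: in the highest decile of density, which holds Nap1l5, the median difference was 0.17 and 46.7% of genes were called higher in A. Relative to that median Nap1l5 was 0.23 higher in clone A, at percentile 83.8 of its decile. Some marker genes also differed between the clones. The summed density of the 8 Hox genes was 40.5 to 43.1 in clone A and 35.4 to 35.6 in clone B, and all 8 were called higher in A. The 6 fibroblast genes summed to 5.81 to 6.20 in clone A and 5.35 to 5.36 in clone B, with Thy1 called higher and Col1a2 lower in A. Without Thy1 the other 5 summed to 3.39 to 3.41 in clone A and 3.63 to 3.66 in clone B. The 8 stem cell genes summed to 4.19 to 4.42 in clone A and 3.41 to 3.50 in clone B, and without Utf1, which had 1.37 to 1.65 in clone A and 0.627 to 0.734 in clone B, the other 7 summed to 2.77 to 2.82 in clone A and 2.77 to 2.79 in clone B. The 3 housekeeping genes summed to 0.790 to 0.932 in clone A and 1.20 to 1.27 in clone B, with B2m called lower in A (log2 -0.68). The part of these differences in the results for Nap1l5, Peg3 and Usp29 was not tested.

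Peg3 averaged 0.254 ± 0.00299 in clone A and 0.316 ± 9.63e-05 in clone B (density, SD, n = 2 libraries each). The log2 difference was -0.30 (SE 0.08, edgeR adjusted p = 0.00293), and all 3 Peg3 intervals were called lower in clone A. Its density decile had a median of 0.01, in which Peg3 stood at percentile 9.61. Usp29 averaged 0.411 ± 0.00104 in clone A and 0.502 ± 0.0148 in clone B, with a log2 difference of -0.27 (SE 0.05, edgeR adjusted p = 1.54e-06). Its density decile had a median of -0.03, in which Usp29 stood at percentile 11.2.

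Of the 10 measured neighbours of Peg3, 3 were called lower in clone A and 0 higher, against 10.1% and 15.4% of named genes. In either direction, 25.5% of named genes were called, which is near 3 of 10. Whether the number of lower genes passes its share was not tested. Zim2 had a log2 difference of -0.40 (SE 0.09, edgeR adjusted p = 8.04e-05), Zim1 of -0.25 and Zfp28, a zinc finger gene with a Krüppel-associated box, of -0.31. The other 7 were not called.

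No called difference was found between the clones over Mest, Copg2, Peg10, Sgce or Calcr in any interval, with log2 differences between -0.08 (Peg10) and 0.16 (a short Mest transcript). For Ppp1r9a, 3 of 9 intervals were called lower in clone A, those that end early, while the interval used for the gene was not (log2 -0.10, SE 0.05, edgeR adjusted p = 0.129). For Herc3, 4 of 8 intervals were called higher in clone A with log2 differences of 0.16 to 0.20, all of them intervals that contain Nap1l5 and leave out the first stretch. The full Herc3 interval, which contains both, had 0.08 (SE 0.06, edgeR adjusted p = 0.353). With column totals in place of TMM factors, 1 of the 43 intervals was called higher in clone A, so the Herc3 calls depend on the scaling. With time as a term, 1 of the 4 was not called (edgeR adjusted p = 0.0538, against 0.0498).

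Over the 43 measured neighbours of the 4 loci, clone A was called higher for 4 and lower for 10, against 15.4% and 10.1% of named genes. The Peg10 domain held 8 of these. Whether the numbers pass their shares was not tested, and several of the called genes lie next to each other, so they are not independent. The paraoxonase genes Pon1, Pon2 and Pon3, downstream of Ppp1r9a, were lower in clone A by log2 values of -0.21, -0.28 and -0.33, and Asb4, a ubiquitin ligase adaptor gene, and Pdk4, a kinase of pyruvate dehydrogenase, by -0.18 and -0.56. Col1a2, a type I collagen gene, was lower as well (-0.35), whereas Casd1 (0.28) and Tfpi2, a serine protease inhibitor gene (0.22), were higher in clone A. At the Nap1l5 locus Pyurf was higher (0.70) and Ppm1k, a mitochondrial phosphatase gene, lower (-0.36), both over 1 Mb from Nap1l5, and at the Mest locus Klf14 was higher (0.27).

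**Figure D4:**
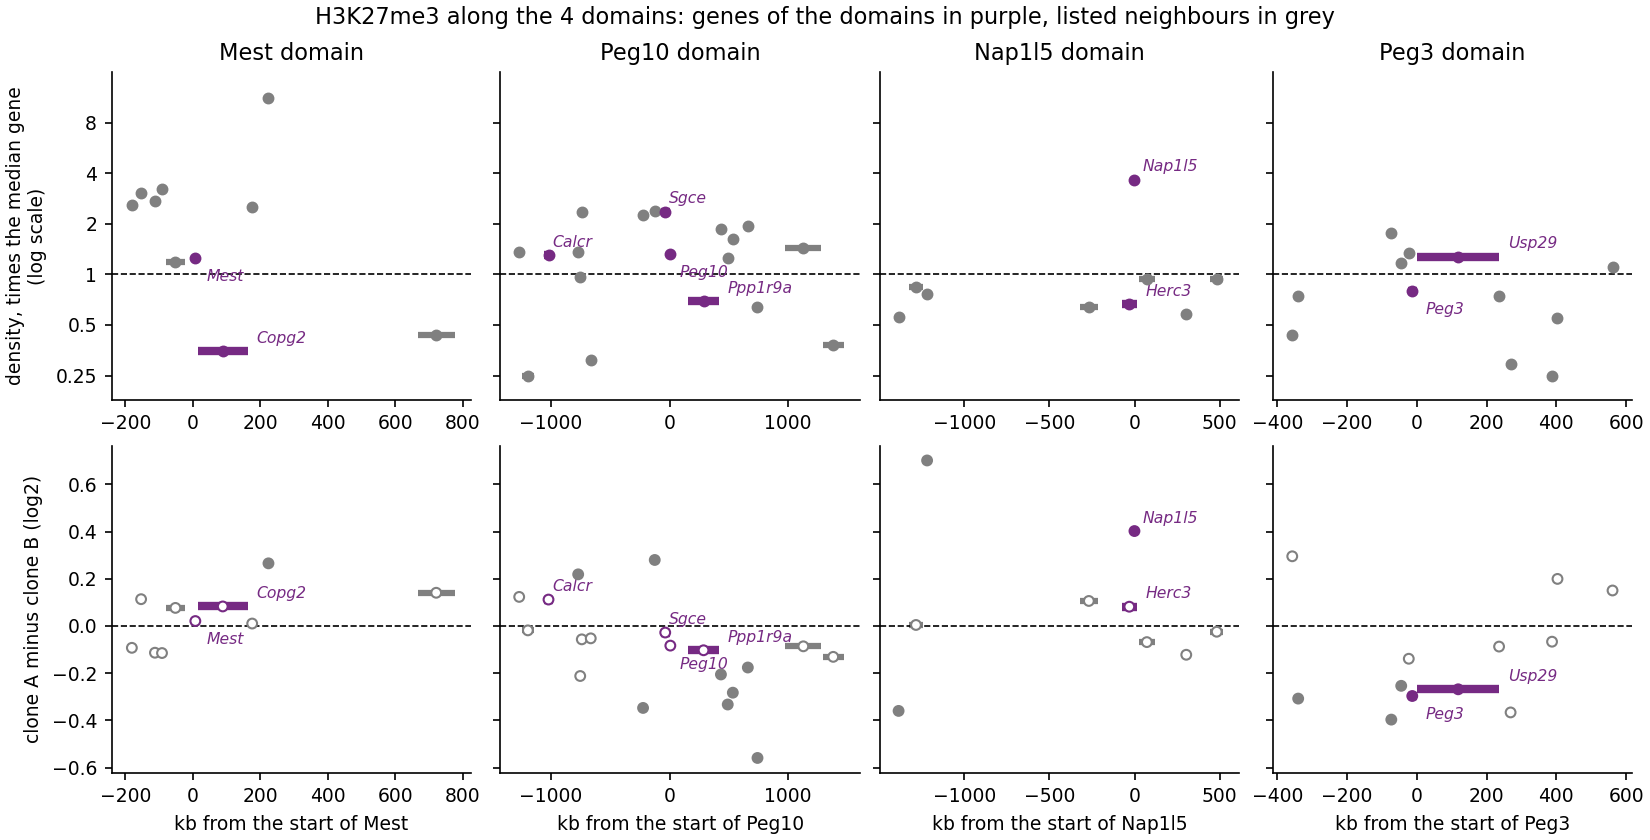
H3K27me3 density relative to the median gene (upper row, log axis) and log2 difference of clone A minus clone B (lower row) along the 4 loci, against the distance in kb from the start of the leading gene. Purple is for the 10 genes and grey for listed neighbours, with a line for the gene's span and a point at its middle. In the lower row, filled points were called at an adjusted p under 0.05 and open points were not. Smarcad1 and Hpgds, over 6 Mb away, and Pigyl, on another chromosome, are left out. Klf14 stands highest at 11.3 times in the Mest panel, and Nap1l5 stands above Herc3 by density.

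Some other imprinted genes carried more of the mark, though the median of their list was no higher. Of 42 listed imprinted genes elsewhere 41 were measured, with a median of 1.12 times the median gene, against 1.26 times for the 10 genes. Of these 41, 13 were marked, against 5.77% of named genes and 0 of the 10 genes, a count near that share. The lists differ in gene length, and its part was not tested. Except for Wt1, the marked ones lie on chromosome 7, between Ndn and Peg12 or between H19 and Phlda2. The latter run holds Cdkn1c, Ascl2 and Igf2. Genes of a run are neighbours, so they are not independent. Cdkn1c, a cell cycle inhibitor, had 12.8 times the median gene, Ascl2, a transcription factor of the placenta, 11.3 times, and Igf2, a growth factor, 10.2 times. The lowest were Tssc4, Ube3a and Cd81, between 0.190 and 0.211 times. Between the clones, clone A was called higher for 15 and lower for 5 of the 41, against 15.4% and 10.1% of named genes, with the largest differences in Nnat (1.35), Blcap (1.33), Gnasas1 (-1.32), Mkrn3 (1.15), Peg12 (0.72) and Gnas (0.65). None was called at 2 h against 0 h.

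Of 13 listed factors of imprinting or DNA methylation 11 were measured, with a median of 0.288 times the median gene. Of these 1 was marked, against 5.77% of named genes. Dppa3, which shields the maternal genome from demethylation in the zygote, was the marked one, at 5.44 times. Zfp445, which like ZFP57 protects methylated imprints, had 1.496 times and Dnmt3l, a cofactor of DNA methylation in germ cells, 0.595 times. The sparsest were Tet1, Zfp42 and Tet2, between 0.239 and 0.245 times. Zfp445 (0.22), Dnmt1, the maintenance DNA methyltransferase (0.36), and Setdb1, a histone H3 lysine 9 methyltransferase (0.45), passed the test as higher in clone A, against 15.4% of named genes, and no listed factor as lower.

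The genes whose densities over the 4 libraries came closest to those of the leading genes were picked by distance in log2 density over all genes of at least 1000 bp. For Nap1l5 the nearest was Ctla4 at a distance of 0.0880, then Rimkla and Scarletltr. For Peg3 they were Krtcap2 at 0.0107, Ica1 and Ccdc181. For Mest they were 4933430I17Rik at 0.0422, Gm39952 and Ksr2, and for Peg10 they were Gm26911 at 0.0533, Pilrb1 and Gm32069. Each search covered 19050 or 19051 genes.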

How the data were processed

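For 4 H3K27me3 libraries the authors deposited raw read counts, as whole numbers per transcript interval, per the file headers; an interval runs from transcript start to end with its introns. Bowtie2, bedtools and mm10 were used, per the submitters' processing notes, and no source used here gives their versions, the filters or the way reads were counted. Of the intervals, 84.8% overlap another, so reads count more than once and a column total is not a depth. A further 12 per-library columns and 4 other columns were not used. File starts count from 0 and are given from 1 here.

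Intervals were named by their best overlap with RefSeq genes of GRCm38.p6, which named 44012 (87.3%). Tests used edgeR 4.0.16 (quasi-likelihood, TMM factors, filterByExpr) over 50037 intervals in R 4.3.3, with Benjamini-Hochberg adjustment, once for time and once for clone, and were tested on simulated data. For time, the simulated counts held no difference between clones, so they cannot show how that test behaves on these libraries. DESeq2 1.42.0, other factors and filters, 1 interval per gene, clone as a block, time as a term and leaving out each library were alternatives. Clone letters pair the libraries, since each clone was sampled at both times, and paired libraries deviated together (r = 0.530 over 50037 intervals, which are not independent). Stretches are differences of counts of nested intervals with 1 shared end, a measure chosen after the data were seen, as was the comparison with genes of like density. The members and lists were chosen with earlier results of these data known. All 10 members are named. The 3 densest, 3 sparsest and up to 6 called genes are named of the neighbours, other imprinted genes and imprinting or DNA methylation factors. A few more neighbours are named that were chosen after their values were seen. The value of 1 listed neighbour is not reported here. Python 3.11.15 was used for the rest. Reads carry no molecular identifiers, so counts are not independent molecules.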

Additional observations from a re-analysis of the deposited data

Results flagged for a closer look

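For 6 of the 10 genes, the density at 2 h over 0 h moved in opposite directions between the clones. There was 1 library per clone and time, and the difference was not tested. The share of all named genes that did so was not counted, so the number is no result about these genes. Some of the changes were close to 0, such as that of Peg3 in clone B. As log2 ratios, Peg10 had -0.07 in clone A, with 0.09 in clone B (difference of A minus B -0.163), Sgce -0.06 and 0.02 (-0.0793), Ppp1r9a -0.16 and 0.02 (-0.171), and Herc3 -0.15 and 0.02 (-0.172). Peg3 had -0.02 in clone A and 0.00 in clone B (-0.0246), and Usp29 had 0.01 in clone A and -0.06 in clone B (0.0655). The library totals and the factors used in the tests enter these ratios, and their part was not tested.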

How the results depend on the processing

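Of the 3 genes called between clones, Peg3 and Usp29 kept their call and direction under every alternative run, and Nap1l5 kept its direction but lost its call with DESeq2 and without the 0 h clone A or the 2 h clone B library. Ppp1r9a was called with column totals in place of TMM factors (log2 -0.12, edgeR adjusted p = 0.0443) and without the 0 h clone A library (-0.17, 0.0111). All intervals called between clones numbered 8780 with DESeq2 (5731 higher, 3049 lower in clone A), 5314 with 1 interval per gene, where fewer intervals were tested, and 9476 to 11838 with a library left out; the cause for DESeq2 was not tested. With column totals 7756 were higher and 6120 lower. Of the 43 intervals of the 10 genes, 5 were called higher and 10 lower in clone A as reported, 2 and 10 with DESeq2 size factors in edgeR, 1 and 16 with column totals, 4 and 10 with time as a term and 0 and 7 with DESeq2, and 7 to 16 were called in all with a library left out. With the replicate block (clone), 0 intervals were called over time, and 2078 (4.15%) had an unadjusted p under 0.05; it changed no call over time. For 2 h against 0 h, leaving out a library gave 0 to 1 calls over all intervals, the 1 without the 2 h clone A library. A density of 2 times the median gene, in place of 4, marked 2 of the 10 genes.

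Differences over time near 0 changed sign. Peg10 had -0.0011 with DESeq2 and with its size factors in edgeR. With 1 library left out, the 2 h minus 0 h values ranged from -0.0988 to 0.0157 (Calcr), -0.0768 to 0.00738 (Copg2), -0.150 to 0.00241 (Herc3), -0.00624 to 0.0431 (Mest), -0.368 to 0.0648 (Nap1l5), -0.0857 to 0.0765 (Peg10), -0.192 to 0.140 (Peg3), -0.179 to 0.00943 (Ppp1r9a) and -0.189 to 0.129 (Usp29). The Mest clone difference ranged from -0.0251 to 0.0603. The group that lost a library then had 1, assumed to vary like the rest. Counts under about 100, as over the Peg3 start, limit what can be seen there.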
